A study of Homo sapiens with 12 samples.

Results

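The 10 transcripts described here belong to the cellular response to low oxygen and were chosen by gene symbol: HIF1A, EPAS1, ARNT, HIF1AN, EGLN1, EGLN3, VEGFA, BNIP3, ADM and ANKRD37. They are 10 of the 26334 genes in the count table. The cells were A673, an established Ewing sarcoma line (a bone and soft tissue tumour driven by an EWSR1 fusion gene), here as the derivative labelled shA673-1c. They were grown in high-glucose medium with serum, blasticidin and zeocin in a standard humidified incubator, and no low-oxygen exposure is named. The cells received 5 µM actinomycin D, which blocks RNA synthesis, and poly(A) RNA was sequenced after 0, 1, 2 and 4 h, with 3 libraries per time point and 12 in all. Every library came from this 1 derivative line and carries the tag CTL in its title, where the tag is not spelled out. The labels do not say what the sh in the line's name targets or whether anything was induced.

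Cells sense oxygen mainly through the hypoxia-inducible factors (HIFs). A HIF is a pair of proteins, an oxygen-labile alpha subunit (HIF1A or EPAS1, also called HIF-2 alpha) and a stable beta subunit (ARNT). In oxygen, the prolyl hydroxylases EGLN1 and EGLN3 mark the alpha subunit for the VHL ubiquitin ligase and the asparaginyl hydroxylase HIF1AN blocks its contact with co-activators. In low oxygen these enzymes slow down, the alpha subunit accumulates, and genes such as VEGFA, BNIP3, ADM, ANKRD37 and EGLN3 itself are transcribed. Control of HIF-alpha acts largely on the protein, which was not measured. The values below concern only mRNA levels at 0 h and their change, relative to other transcripts, after synthesis was blocked.

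Library totals ran from 9147018 to 11194705 counts, and libraries of the same time differed beyond sampling noise. Of 5 Ewing sarcoma markers, 4 (NKX2-2, NR0B1, STEAP1 and PRKCB) had a mean of at least 10 counts, while CD99 was listed at 0 in every library. The endothelial, epithelial and leukocyte markers reached a mean of 10 counts in 0 of 4 genes each. Counts are given as CPM (counts scaled to a common library size) after TMM scaling, which sets the libraries to a common level from the bulk of their genes. No spike-in RNA was named, so a level or slope on this scale is relative to the other transcripts of the same library. In bulk samples, fewer cells and less RNA per cell cannot be told apart. The labels call the replicates biological and seeded in plates, and p-values measure the spread between these libraries.

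At 0 h the 10 transcripts spanned a wide range of levels per kilobase of their reference transcript. HIF1A was the most abundant, with 72.1 ± 4.53 CPM per kb (SD, n = 3). EGLN1 (27.9 ± 2.82) and BNIP3 (27.7 ± 2.20) came next, and their ranges overlapped. Below them stood VEGFA at 12.7 ± 0.962 CPM per kb, ARNT at 9.59 ± 0.434 and HIF1AN at 6.85 ± 0.305. ADM had 3.18 ± 0.437, EPAS1 1.65 ± 0.373, EGLN3 0.778 ± 0.156 and ANKRD37 0.367 ± 0.338 CPM per kb. Neighbours in this order did not overlap between libraries, except EGLN1 with BNIP3 and EGLN3 with ANKRD37. The HIF-1 alpha mRNA was therefore present at a far higher level than the HIF-2 alpha mRNA (EPAS1), and EGLN1 mRNA at a far higher level than EGLN3 mRNA. A further prolyl hydroxylase, EGLN2, was listed near 0 by an unknown counter and cannot be placed. By 4 h the order had changed. EGLN1 (15.2 ± 2.12 CPM per kb) lay below BNIP3 (29.0 ± 0.215), and VEGFA (7.85 ± 1.07) lay below ARNT (9.78 ± 0.126). ADM (0.164 ± 0.0923) lay below EPAS1 (2.38 ± 0.0781), and its range overlapped with that of EGLN3 (0.328 ± 0.132). The level of HIF1AN depends on the length of its reference transcript, 12.927 kb, of which 11861 bases are 3′ UTR.

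AU-rich elements in the 3′ UTR are classical marks of short-lived mRNAs, and they were counted in the reference transcripts (GENCODE 44, GRCh38) as the pentamer ATTTA and the nonamer TTATTTATT on the sense strand, overlapping matches included and each nonamer also holding a pentamer. HIF1A held 8 pentamers in 1173 bases and 2 overlapping nonamers. VEGFA held 10 pentamers in 1925 bases and 1 nonamer. ADM held 3 pentamers in 756 bases, and no nonamer was found in ADM or the other 7 reference sequences. A nonamer was found in 10.1% of the 10785 tested genes with a usable 3′ UTR, and a pentamer in 75.3%. Among tested genes with a 3′ UTR within 20% of the same length, the nonamer share was 7.16% for HIF1A, 9.72% for VEGFA and 5.83% for ADM. The windows below are shown because the transcripts holding them behaved very differently after actinomycin D. They come from HIF1A (chr14:61747346-61747374, plus strand), VEGFA (chr6:43786286-43786314, plus strand) and ADM (chr11:10307082-10307110, plus strand), all inside the 3′ UTR, with the motif in capitals.
HIF1A, 2 overlapping nonamers: atgcacctttTTATTTATTTATTtttggc
VEGFA, nonamer: ttgttatcatTTATTTATTggtgctactg
ADM, pentamer: gtaactatcaatATTTAagtttgttgctg

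Change over time was tested with edgeR's quasi-likelihood test in the 12032 genes that averaged 10 or more counts, 9 of the 10 transcripts among them. ANKRD37, with a mean of 2.17 counts, was too low to test. Of the 9, 5 fell (ADM, EGLN3, EGLN1, HIF1AN and VEGFA), against 32.1% of all tested genes. EPAS1 alone rose, against 30.7% of all tested genes, and HIF1A, ARNT and BNIP3 did not pass the threshold (adjusted p below 0.05 over all genes). The transcripts that fell were thus the 3 hydroxylases and the 2 secreted factors, while the 3 HIF subunits and the mitochondrial protein BNIP3 did not fall on the TMM scale.

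**Figure D1:**
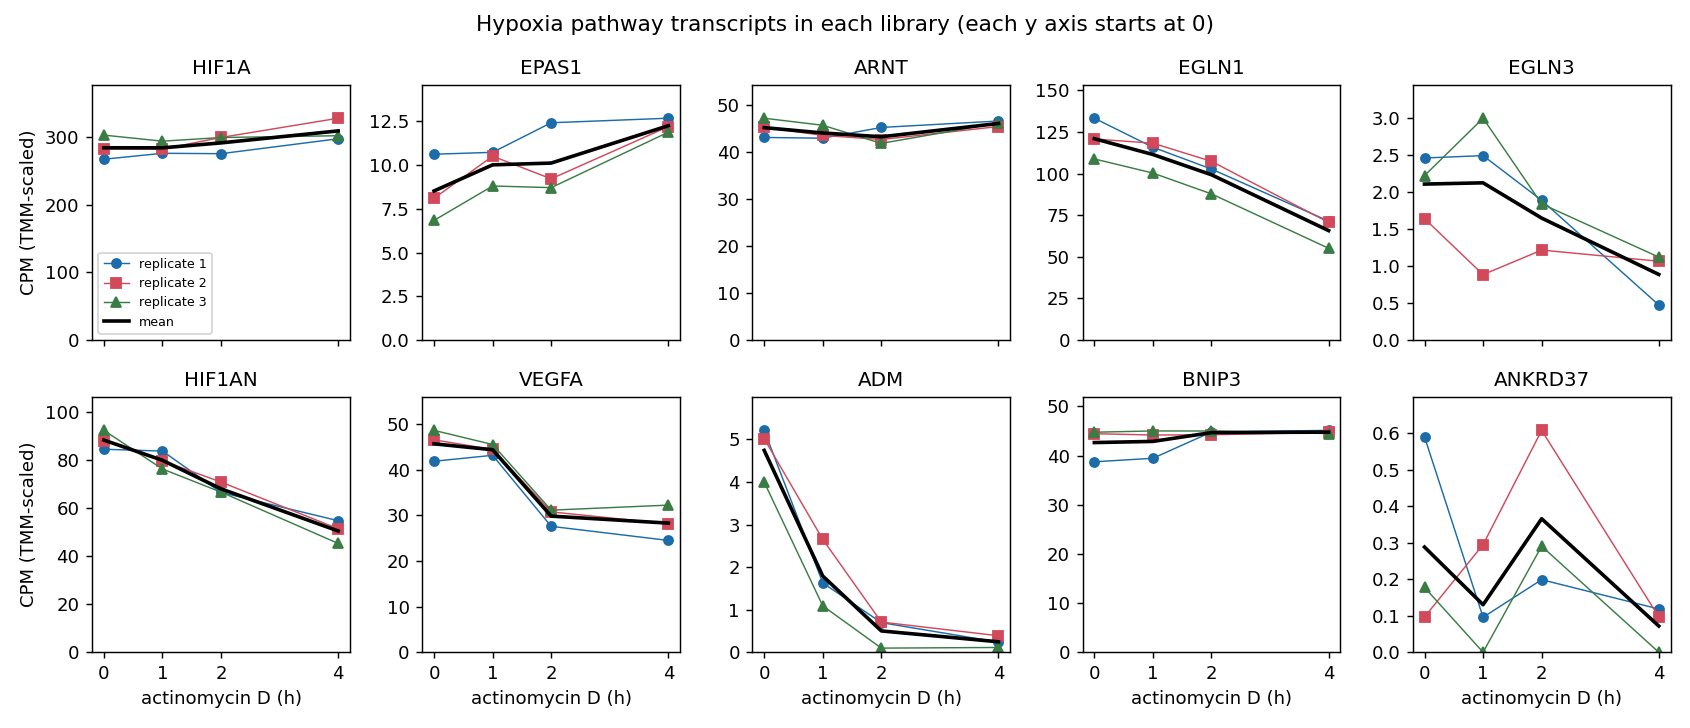
Each panel plots 1 transcript in CPM (TMM-scaled, y axis from 0) against hours of actinomycin D, with points for the 3 replicates and a black line for their mean. ADM dropped from the first hour on, to 5.18% of its 0 h mean at 4 h, and VEGFA stepped down between 1 and 2 h. The hydroxylases EGLN1 and HIF1AN declined at every step, and the 0 h and 4 h libraries of HIF1A, ARNT and BNIP3 overlapped.

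None of the 3 HIF subunit mRNAs fell relative to the bulk of the transcripts. HIF1A (chr14:61695513-61748259, plus strand) measured 267, 283 and 303 CPM at 0 h in replicates 1, 2 and 3. It measured 276, 283 and 294 CPM at 1 h, 276, 299.7 and 299.6 at 2 h, and 298, 328 and 302 at 4 h. The ranges at 0 h and 4 h overlapped, and only replicates 1 and 2 ended above where they began. The mean at 4 h was 109% of that at 0 h. The slope was 0.032 ± 0.014 on the log2 scale per h (SE, edgeR adjusted p = 0.0586), in the 56.7th percentile of all tested genes. When the replicate number entered as a block, the adjusted p was 0.00755 for the slope and 0.00366 for 4 h against 0 h, at 0.12 (0.106 without the block). The slope also passed the threshold with DESeq2 size factors (adjusted p = 0.0476), with the DESeq2 Wald test (adjusted p = 0.0316) and without replicate 3 (0.043, adjusted p = 0.0314). It did not pass without replicate 1 (adjusted p = 0.135) or without replicate 2 (0.019, adjusted p = 0.394). Scaled to GAPDH and ACTB instead, HIF1A had a slope of −0.11 (adjusted p = 0.000787). HIF1A is the transcript that holds 2 overlapping nonamers in the window printed above.

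EPAS1, the alpha subunit best known from endothelium and kidney cancer, was the 1 transcript of the 9 whose slope rose. EPAS1 (chr2:46293667-46386697, plus strand) measured 10.6, 8.10 and 6.84 CPM at 0 h, 10.7, 10.5 and 8.81 at 1 h, 12.4, 9.22 and 8.71 at 2 h, and 12.7, 12.2 and 11.9 at 4 h. All 3 libraries at 4 h lay above all 3 at 0 h, and the mean was 144% of that at 0 h. The slope was 0.12 ± 0.040 per h (adjusted p = 0.0143), and the log2 difference of 4 h from 0 h was 0.53 ± 0.17 (adjusted p = 0.0170). The slope call was lost with library totals (0.083, adjusted p = 0.0870), without replicate 2 (adjusted p = 0.0828) and without replicate 3 (adjusted p = 0.0852). The 4 h call was lost under the same alternatives, with adjusted p of 0.0697, 0.142 and 0.0872. With GAPDH and ACTB as the scale, the slope of EPAS1 was −0.015.

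ARNT, the shared beta subunit, was the flattest of the subunits. ARNT (chr1:150809713-150876708, minus strand) measured 43.1, 45.2 and 47.2 CPM at 0 h, 42.9, 43.5 and 45.7 at 1 h, 45.2, 42.6 and 41.8 at 2 h, and 46.6, 45.4 and 46.2 at 4 h. The 0 h and 4 h libraries overlapped, while all 4 h libraries lay slightly above all 2 h libraries, and the slope was 0.0082 ± 0.016 per h, with a 95% interval from −0.027 to 0.043 (adjusted p = 0.686). The remaining subunit genes of the pathway list, HIF3A and ARNT2, were near the limit of the depth, with 0.942 ± 0.141 and 3.29 ± 0.467 CPM at 0 h (SD, n = 3). Neither passed the threshold, at a slope of 0.15 for HIF3A (adjusted p = 0.236) and −0.095 for ARNT2 (adjusted p = 0.262).

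All 3 hydroxylase mRNAs fell. EGLN1 (chr1:231363751-231422287, minus strand), the main oxygen sensor among the prolyl hydroxylases, measured 133, 121 and 109 CPM at 0 h. It measured 116, 118 and 100.3 CPM at 1 h, 103, 107 and 87.8 at 2 h, and 71.4, 70.7 and 55.1 at 4 h. Each replicate declined at every step, and from 2 h on all libraries lay below all 0 h libraries. The means were 92.2%, 82.1% and 54.4% of that at 0 h after 1, 2 and 4 h. The slope was −0.22 ± 0.028 per h (adjusted p = 3.69e-06). If loss followed a single exponential, that is a half-life of 4.50 h (95% interval from 3.55 to 6.15 h) relative to the TMM scale. A squared-time term did not pass the threshold for EGLN1 (adjusted p = 0.672). It did with a replicate block (−0.037, adjusted p = 0.0365), the decline being steeper at the later times. Exons of EGLN1 overlap those of ENSG00000287856, a protein-coding gene on the same strand, by 3004 bases. That gene is not listed under this name in the count table, so how reads in that stretch were assigned is not known.

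HIF1AN (chr10:100529072-100559998, plus strand) fell at a slope close to that of EGLN1. It measured 84.7, 88.3 and 92.5 CPM at 0 h, 83.9, 79.8 and 76.4 at 1 h, 66.7, 71.0 and 66.8 at 2 h, and 54.9, 51.5 and 45.4 at 4 h. All libraries at each later time lay below all libraries at 0 h, and the mean at 4 h was 57.2% of that at 0 h. The slope was −0.21 ± 0.018 per h (adjusted p = 6.30e-08), a half-life of 4.86 h (4.11 to 5.96 h). Exons of HIF1AN overlap the antisense gene NDUFB8 by 325 bases, and the strand setting of the counting is not given, so reads in that stretch cannot be assigned with certainty.

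EGLN3, an inducible prolyl hydroxylase that is itself a HIF target, was expressed at the edge of the depth. EGLN3 (chr14:33924227-34462774, minus strand) had 25, 17 and 25 raw counts at 0 h, 26, 9 and 33 at 1 h, 19, 12 and 19 at 2 h, and 4, 11 and 10 at 4 h. The 4 h libraries in CPM (0.474 to 1.12) lay below the 0 h libraries (1.64 to 2.46), whereas those at 1 h overlapped with 0 h. The slope was −0.30 ± 0.0999 per h (adjusted p = 0.0139), a half-life of 3.28 h with a wide interval from 1.94 to 10.7 h. The summed counts left 42.8% at 4 h, with a counting interval from 25.9% to 68.7%. Replicate 1 weighed heavily: the slopes of single replicates were −0.57, −0.090 and −0.28 per h. Without it the slope was −0.22 (adjusted p = 0.149), and for 4 h against 0 h the adjusted p was 0.255 without replicate 1 and 0.0551 without replicate 3.

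Among the HIF targets, the secreted factors and the mitochondrial protein parted ways. ADM encodes adrenomedullin, a vasodilator peptide, and had the steepest slope of the 9. ADM (chr11:10305073-10307397, plus strand) had 53, 52 and 45 raw counts at 0 h, 17, 27 and 12 at 1 h, 7, 7 and 1 at 2 h, and 2, 4 and 1 at 4 h. Every library after 0 h lay below every library at 0 h. In CPM the mean was 37.7% of its 0 h value at 1 h, 10.6% at 2 h and 5.18% at 4 h. From summed counts (7 against 150) 5.36% was left at 4 h, with a counting interval from 2.12% to 11.3%. The slope was −1.27 ± 0.13 per h (adjusted p = 5.65e-07), in the 0.0831 percentile of all tested genes. The half-life was 0.790 h (0.645 to 1.02 h), which averages over an uneven course. The mean at 2 h was 28.0% of that at 1 h, and the mean at 4 h was 49.0% of that at 2 h. With limma the slope was −0.97 (adjusted p = 2.68e-05), outside the edgeR interval from −1.55 to −0.98. Slopes of single replicates on log2 CPM (prior count 1) were −0.96, −0.87 and −1.07. The 3 pentamers of ADM, 1 of them printed above, are as many as or more than those of 86.9% of genes with a 3′ UTR of similar length, and its 3′ UTR holds no nonamer.

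VEGFA, the vascular endothelial growth factor and a textbook HIF target, fell in a step on the TMM scale. VEGFA (chr6:43770184-43786487, plus strand) measured 41.9, 46.6 and 48.7 CPM at 0 h, 43.2, 44.5 and 45.6 at 1 h, 27.6, 30.8 and 31.2 at 2 h, and 24.5, 28.2 and 32.3 at 4 h. The 1 h libraries lay inside the range at 0 h, and the 2 h and 4 h libraries lay below both but overlapped with each other. The mean at 1 h was 97.2% of that at 0 h, the mean at 2 h was 67.2% of that at 1 h, and the mean at 4 h was 94.9% of that at 2 h. GAPDH and ACTB at 4 h stood at 124% and 123% of their 2 h means. The small loss of VEGFA after 2 h therefore holds for the TMM scale and not for a scale set by these 2 genes. The slope of the straight line was −0.19 ± 0.033 per h (adjusted p = 7.91e-05). The half-life of 5.17 h (3.80 to 8.08 h) averages over this uneven course. A fastest loss between 1 and 2 h was not particular to VEGFA: CITED2, SIAH1, DDIT4 and BHLHE40, described below, had it too. Whether it belongs to the transcripts or to the 2 h libraries was not tested. The squared-time term for VEGFA did not pass the threshold (0.033, adjusted p = 0.893), and a step between 1 and 2 h is a shape that this term does not describe. VEGFA holds the single nonamer printed above, and 10 pentamers, as many as or more than 95.2% of genes with a 3′ UTR of similar length.

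BNIP3, a mitochondrial outer membrane protein of mitophagy, did not fall on the TMM scale. BNIP3 (chr10:131967684-131981967, minus strand) measured 38.7, 44.5 and 44.8 CPM at 0 h, 39.5, 44.2 and 45.0 at 1 h, 44.8, 44.3 and 45.0 at 2 h, and 45.1, 44.7 and 44.5 at 4 h. The 4 time points overlapped, with replicate 1 lowest at 0 h and 1 h. The slope was 0.019 ± 0.018 per h (95% interval from −0.019 to 0.057, adjusted p = 0.366). The genome holds many BNIP3 pseudogenes, so the assignment of BNIP3 reads is uncertain. ANKRD37, an ankyrin-repeat protein and HIF target, had 6, 1 and 2 counts at 0 h, 1, 3 and 0 at 1 h, 2, 6 and 3 at 2 h, and 1, 1 and 0 at 4 h. The 0 h libraries of ANKRD37 overlapped with those of every later time, the 2 h libraries all lay above the 4 h libraries, and no test was made at these counts. The libraries with 0 counts allow up to 0.272 CPM (replicate 3 at 1 h) and 0.336 CPM (replicate 3 at 4 h), a floor of 3 counts that covers counting error only. Exons of ANKRD37 overlap the antisense gene UFSP2 by 909 bases.

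Taking time as 4 groups gave a similar picture without the assumption of a line. At 4 h, 5 of the 9 transcripts were lower than at 0 h, against 31.6% of all tested genes, and 1 was higher, against 28.7%. The log2 differences were −4.16 ± 0.49 for ADM (adjusted p = 5.23e-06) and −1.22 ± 0.44 for EGLN3 (adjusted p = 0.0269). They were −0.88 ± 0.11 for EGLN1 (adjusted p = 1.10e-05), −0.81 ± 0.074 for HIF1AN (adjusted p = 4.45e-07) and −0.69 ± 0.097 for VEGFA (adjusted p = 2.93e-05). When the replicate block was added, 2 of the 9 rose over time and 2 were higher at 4 h, EPAS1 and HIF1A in both.

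After 1 h, ADM was already lower, and it was the 1 transcript of the 9 to pass, against 2.24% of all tested genes. Its log2 difference was −1.41 ± 0.33 (edgeR adjusted p = 0.0388), and the call was lost without replicate 1 (adjusted p = 0.401), without replicate 2 (adjusted p = 0.218) and with limma (adjusted p = 0.229), while the difference stayed between −1.75 and −1.25 under all alternatives in which ADM was tested. The 269 genes behind this share became 31, 1 and 157 without replicate 1, 2 and 3, and 1261 with the replicate block. No transcript of the 9 was higher at 1 h, against 0.349% of all tested genes, and 0 had an unadjusted p below 0.05 in that direction with edgeR, DESeq2 or limma. The 42 genes behind that share became 2, 0 and 11 without replicate 1, 2 and 3, and 744 with the replicate block. The 1 h and 4 h contrasts share their 0 h libraries. For the squared-time term, edgeR called 0 of the 9, against 1.51% of all tested genes, with 0 at an unadjusted p below 0.05. DESeq2 also called 0, and limma called 0 with 1 (ADM) at an unadjusted p below 0.05. Over all tested genes the squared-time calls numbered 182, against 9, 3 and 66 without replicate 1, 2 and 3, and 600 with the replicate block.

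Since the scale between libraries matters here, 6 pairs of transcripts were also compared as count ratios within each library, which no scaling can change. ADM fell against VEGFA: there were 10.5 ± 2.13 ADM counts per 100 VEGFA counts at 0 h (SD, n = 3), 4.04 ± 1.80 at 1 h, 1.71 ± 1.22 at 2 h and 0.896 ± 0.517 at 4 h. The slope of the log2 ratio was −0.83 per h, with −0.79, −0.71 and −0.997 in the single replicates (two-sided exact permutation test over 369600 arrangements of the time labels, p = 0.00153, adjusted over the 6 pairs p = 0.00917). Leaving out replicate 1 or replicate 2, the slope was −0.86 and −0.89, with adjusted p of 0.108 and 0.1 by the same exact permutation test. Against VEGFA, another secreted HIF target, ADM fell in every replicate.

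The other 5 ratios did not pass. There were 3.03 ± 0.869 EPAS1 counts per 100 HIF1A counts at 0 h and 3.97 ± 0.273 at 4 h (slope 0.094 per h, adjusted exact permutation p = 0.285). ARNT counts per 100 HIF1A counts went from 15.9 ± 0.291 to 14.9 ± 0.954 (slope −0.024, from −0.054 to −0.0056 in single replicates, adjusted exact permutation p = 0.285). HIF1AN counts per 100 EGLN1 counts were 73.9 ± 10.8 at 0 h and 77.3 ± 4.74 at 4 h, with a slope of 0.019 per h and −0.0031 to 0.055 in single replicates (adjusted exact permutation p = 0.489). The prolyl and asparaginyl hydroxylase mRNAs thus declined at rates that were not told apart here. EGLN3 counts per 100 EGLN1 counts were 1.75 ± 0.352 and 1.40 ± 0.691 (slope −0.097, adjusted exact permutation p = 0.489), and without replicate 1 that slope was 0.036. ANKRD37 counts per 100 BNIP3 counts were 0.712 ± 0.708 and 0.160 ± 0.140 (adjusted exact permutation p = 0.489), both from fewer than 10 ANKRD37 counts.

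**Figure D2:**
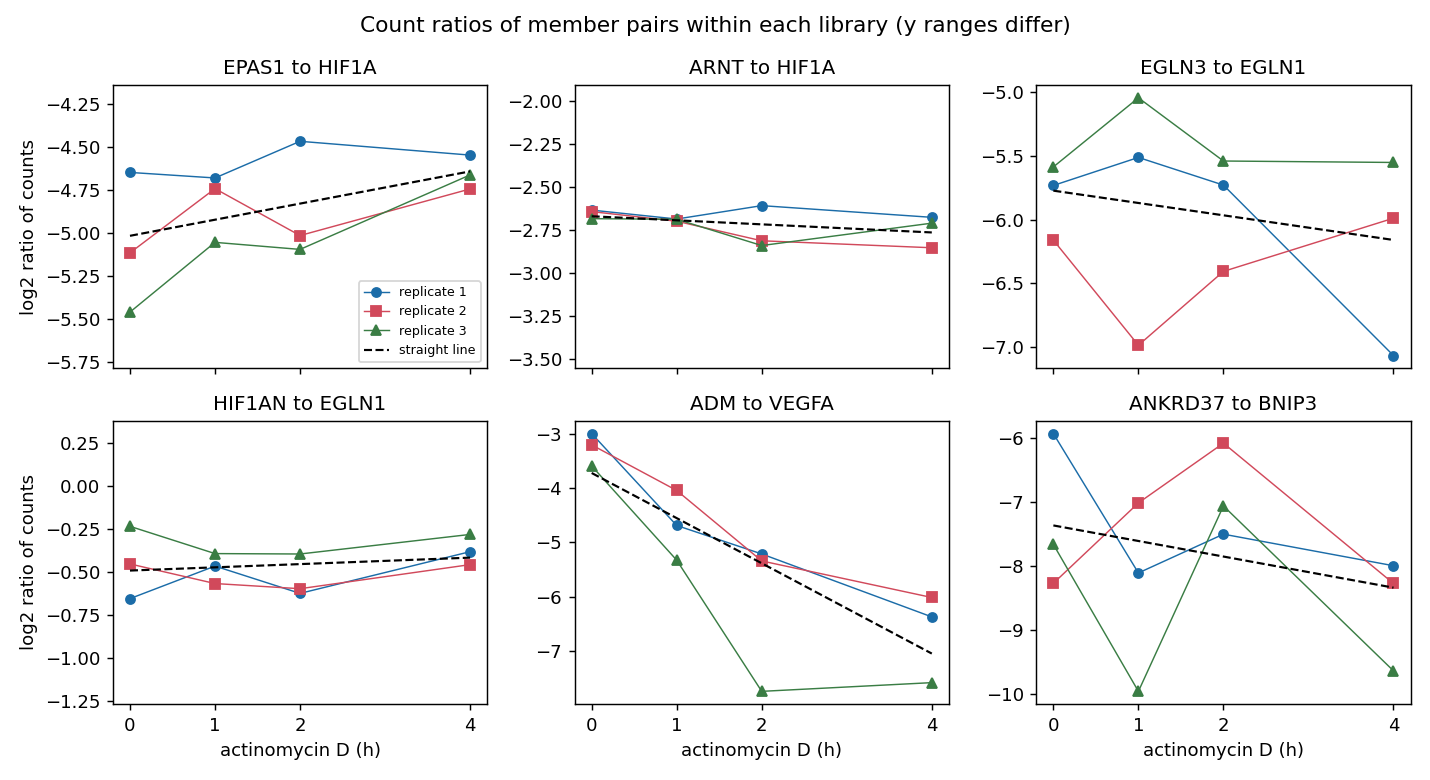
Each panel plots the log2 ratio of 2 transcripts' raw counts (with 0.5 added to each) against hours of actinomycin D, with points for the 3 replicates and a dashed straight line; y ranges differ between panels. The ADM to VEGFA ratio dropped in all 3 replicates (slope −0.83 per h), while the HIF1AN to EGLN1 ratio stayed nearly level (slope 0.019 per h).

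The direction of the slower transcripts depended on the scale. GAPDH and ACTB, often used as reference genes, stood at 151% and 142% of their 0 h CPM at 4 h. Scaling to their sum moved the median slope of all tested genes by −0.14 per h, and library totals moved it by −0.039. The share of rising genes among all called genes was 48.9% with TMM, 32.3% with library totals and 1.43% with GAPDH and ACTB. On the GAPDH and ACTB scale, 8 of the 9 transcripts fell and none rose. HIF1A (−0.11), ARNT (−0.13) and BNIP3 (−0.12) then had negative slopes past the threshold, while EPAS1 (−0.015) did not pass. The 5 that fell with TMM fell under each of the 4 scalings, at slopes that depended on the scale. With GAPDH and ACTB the slopes were −0.36 for EGLN1, −0.34 for HIF1AN and −0.33 for VEGFA. These lay below the lower ends of the TMM intervals (−0.28, −0.24 and −0.26), so half-lives on that scale would be shorter. The slopes of ADM (−1.38) and EGLN3 (−0.44) were steeper too but stayed inside their TMM intervals. The half-life intervals cover the spread between libraries and not the choice of scale.

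**Figure D3:**
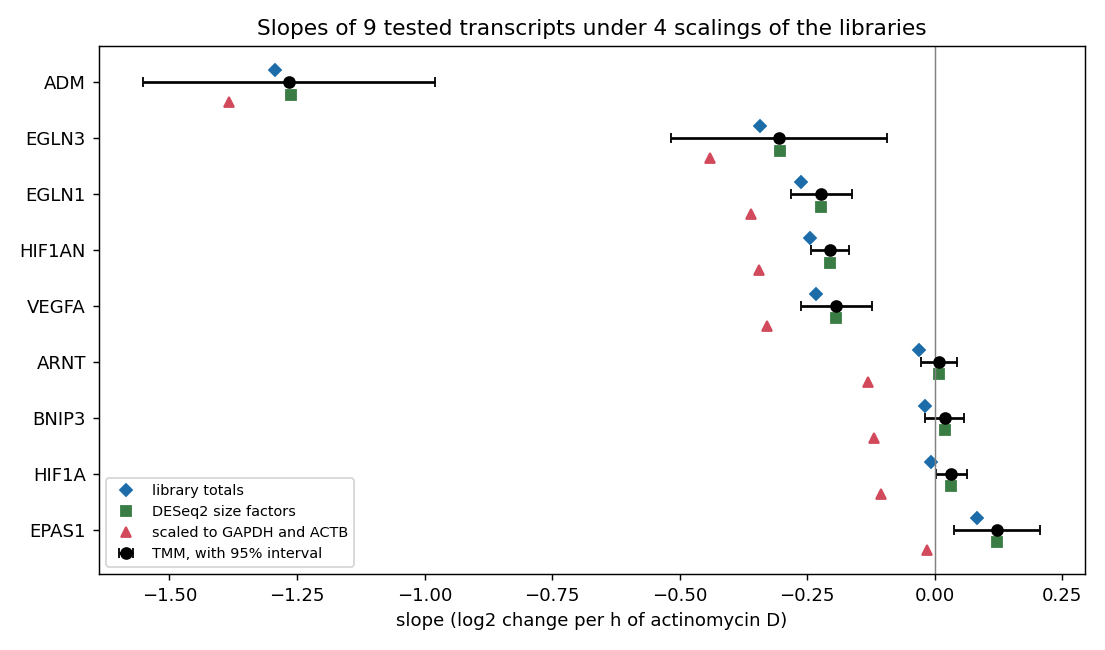
Slopes of the 9 tested transcripts (log2 change per h, x axis) under 4 scalings of the libraries, with a 95% interval for TMM. ADM, EGLN3, EGLN1, HIF1AN and VEGFA lie left of 0 under each scaling, whereas HIF1A, ARNT, BNIP3 and EPAS1 lie right of 0 with TMM and left of it with GAPDH and ACTB.

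The wider pathway was described with 87 further genes in 6 groups by role, of which 81 had enough counts to test. Of these, 27 fell (33.3%, against 32.1% of all tested genes), 36 rose (44.4%, against 30.7%) and 18 did not pass. Their median slope was 0.062 per h, against 0.0093 for all tested genes. With GAPDH and ACTB as the scale, 2 of the 81 rose, MIF and ELOB.

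Around the hydroxylases, 6 further genes were tested, 5 of them parts of the VHL ubiquitin ligase and the other P4HTM: 2 fell (33.3%, against 32.1% of all tested genes) and 4 rose (66.7%, against 30.7%). CUL2, the cullin scaffold, fell from 103 ± 6.54 CPM at 0 h to 78.7 ± 4.33 at 4 h (SD, n = 3), at a slope of −0.094 per h (adjusted p = 8.49e-05). VHL itself, which recognises hydroxylated HIF-alpha, fell from 67.3 ± 2.13 to 57.1 ± 5.65 CPM, at −0.064 per h (adjusted p = 0.00846), a call lost without replicate 1 (adjusted p = 0.0611) or 2 (adjusted p = 0.0752). Both slopes were shallower than those of EGLN1, EGLN3 and HIF1AN, without a test of the difference. The elongin adaptors rose, ELOB (listed as TCEB2) from 87.8 ± 2.67 to 144 ± 3.46 CPM and ELOC (listed as TCEB1) from 74.8 ± 6.53 to 98.0 ± 5.71 CPM, as did the endoplasmic reticulum prolyl hydroxylase P4HTM (slope 0.13 per h). EGLN2, the remaining prolyl hydroxylase, was too low to test.

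Of the 9 HIF cofactors and regulators, 6 fell (66.7%, against 32.1% of all tested genes) and 3 rose (33.3%, against 30.7%), with a median slope of −0.41 per h. CITED2, which competes with HIF-alpha for the co-activator p300, had a slope close to that of ADM: it went from 194 ± 11.3 CPM at 0 h to 8.23 ± 1.63 at 4 h, at −1.26 ± 0.095 per h (adjusted p = 1.52e-08) and a half-life of 0.793 h. SIAH1 and SIAH2, ubiquitin ligases that degrade the prolyl hydroxylases, fell at −0.74 ± 0.071 (adjusted p = 1.86e-07) and −0.66 ± 0.041 per h (adjusted p = 2.85e-09), with half-lives of 1.36 and 1.52 h. The slopes of these 3 regulators were steeper than those of the hydroxylases EGLN1, EGLN3 and HIF1AN, a difference that was not tested. The half-lives of CITED2 and SIAH1 average over an uneven course. Means at 0, 1, 2 and 4 h were 194, 113, 19.7 and 8.23 CPM for CITED2 and 31.7, 23.4, 7.52 and 4.99 for SIAH1. SIAH2 fell more evenly (27.9, 21.8, 12.6 and 4.57 CPM). OS9 (0.14 per h), RACK1 (listed as GNB2L1, 0.11) and the chaperone HSP90AA1 (0.076) rose on the TMM scale.

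The 23 glycolysis and glucose transport targets leaned the other way, with 17 rising (73.9%, against 30.7% of all tested genes), 2 falling (8.70%, against 32.1%) and 4 not past the threshold, and a median slope of 0.12 per h. PFKL, a phosphofructokinase, rose from 113 ± 15.4 to 187 ± 19.0 CPM (slope 0.18, adjusted p = 2.45e-06), and the aldolase ALDOA rose from 1152 ± 43.99 to 1813 ± 147 CPM (slope 0.16, adjusted p = 1.19e-07). ALDOC rose at 0.18 per h (adjusted p = 0.0269), a call lost with library totals (adjusted p = 0.0891), without replicate 2 (adjusted p = 0.0781) and without replicate 3 (adjusted p = 0.0672). PFKFB3, the inducible regulator of glycolytic flux, fell at −0.21 ± 0.039 per h (adjusted p = 0.000158), a half-life of 4.72 h. The hexokinase HK2 fell at −0.086 (adjusted p = 0.00597), a call lost without replicate 1 (adjusted p = 0.0659). GAPDH is itself in this group, and 0 of its genes rose when scaled to GAPDH and ACTB.

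Of the 33 other HIF targets tested, 15 fell (45.5%, against 32.1% of all tested genes), 9 rose (27.3%, against 30.7%) and 9 did not pass, with a median slope of −0.077 per h. Like ADM, a few were lost within the first hours. DDIT4 (REDD1), an inhibitor of mTORC1, went from 11.5 ± 2.91 CPM at 0 h to 0.713 ± 0.331 at 4 h, at −1.19 ± 0.11 per h (adjusted p = 1.19e-07). BHLHE40, a transcriptional repressor, fell at −0.98 ± 0.099 per h (adjusted p = 2.99e-07), and HILPDA, a lipid droplet protein, at −0.63 ± 0.029 (adjusted p = 5.39e-10). The half-lives were 0.839 h for DDIT4, 1.02 h for BHLHE40 and 1.58 h for HILPDA. Those of DDIT4 and BHLHE40 average over an uneven course. Means at 0, 1, 2 and 4 h were 11.5, 5.20, 1.09 and 0.713 CPM for DDIT4 and 9.08, 5.19, 1.25 and 0.880 for BHLHE40. HILPDA fell more evenly (29.7, 19.5, 11.4 and 5.30 CPM). Like BNIP3, others did not fall: the cytokine MIF rose at 0.22 per h (adjusted p = 1.41e-06), the collagen prolyl hydroxylase P4HA2 at 0.16 (adjusted p = 1.80e-05) and the lysyl hydroxylase PLOD1 at 0.16 (adjusted p = 3.86e-07).

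In the signalling genes that act with VEGFA and ADM, 2 of 8 tested genes fell (25.0%, against 32.1% of all tested genes), 3 rose (37.5%, against 30.7%) and 3 did not pass, shares near those of all genes. PGF, a VEGF family ligand, fell from 55.7 ± 12.1 to 28.5 ± 6.24 CPM, at −0.24 ± 0.048 per h (adjusted p = 0.000367), while its relative VEGFB rose from 28.4 ± 2.69 to 42.1 ± 4.19 CPM (slope 0.13, adjusted p = 0.000281). CALCRL, a receptor subunit for adrenomedullin, fell at −0.16 per h (adjusted p = 0.0184). The call was lost without replicate 1 (adjusted p = 0.0777), 2 (adjusted p = 0.0530) or 3 (adjusted p = 0.0707). Of its accessory proteins, RAMP1 rose at 0.20 per h (adjusted p = 0.00228), a call lost without replicate 3 (adjusted p = 0.0674). RAMP2 did not pass (slope 0.062 per h, adjusted p = 0.457), so a rise is not shown for the accessory proteins in general. The VEGF co-receptor NRP1 rose at 0.086 per h (adjusted p = 0.0132), and its call was lost with library totals (adjusted p = 0.152), without replicate 1 (adjusted p = 0.0555) and without replicate 2 (adjusted p = 0.108).

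**Figure D4:**
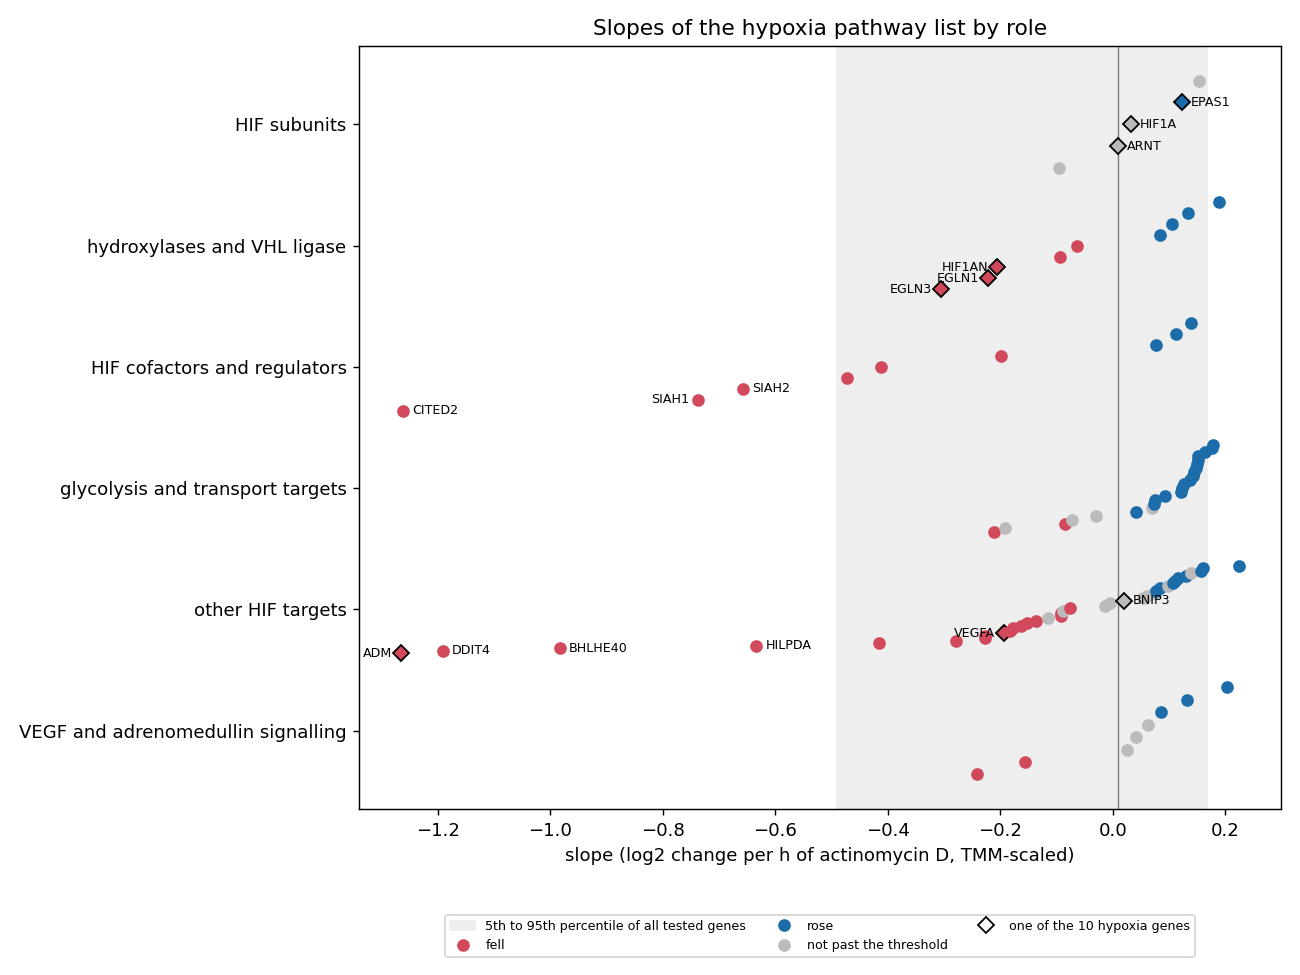
Slopes (log2 change per h, TMM-scaled) of the tested pathway genes by role, with diamonds for the transcripts described in detail, red for those that fell, blue for those that rose and grey for those not past the threshold. The grey band spans the 5th to 95th percentile of all tested genes and the vertical line marks their median (0.0093); ADM, CITED2, DDIT4, BHLHE40, SIAH1, SIAH2 and HILPDA lie left of it, while EGLN1, EGLN3, HIF1AN and VEGFA lie inside it.

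The motif counts can be set beside the slopes. HIF1A held 2 overlapping nonamers and more pentamers than or as many as 98.4% of genes of similar 3′ UTR length. It did not fall with TMM (slope 0.032 per h), though it did with GAPDH and ACTB as the scale (−0.11). VEGFA, the other transcript with a nonamer and likewise rich in pentamers (95.2%), fell at −0.19 per h with TMM. ADM, with no nonamer, had the steepest slope of the 9. Over the 10785 tested genes with a usable 3′ UTR the median slope was −0.049 per h with a nonamer and 0.014 without one, and 43.0% against 31.6% fell. Pentamers per kilobase and slope had a Spearman rho of −0.24 across genes, which are not independent replicates, so this is a description.

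For HIF1A, EGLN1 and VEGFA, the genes with the most similar course over the 12 libraries were found among 8855 others that averaged 100 or more counts. For EGLN1 these were ZNF622 (Pearson r = 0.991), CDV3 (0.990) and NIFK (0.989), with slopes of −0.41, −0.23 and −0.28 per h. For VEGFA they were E2F2 (0.973), CNTRL (0.972) and TRIM13 (0.960), and for HIF1A they were PDHB (0.931), RBBP4 (0.927) and SMARCA1 (0.925). The 12 libraries share the time course and the scaling, so a high r describes a similar shape and carries no p.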

How the data were processed

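For 12 poly(A) libraries made with a stranded kit, the authors deposited read counts by gene symbol, not normalized. Per the labels, the submitters' processing notes name FastQC, STAR and hg19; the counter, its annotation and its strand setting are not given in the sources used here. The 12 columns were matched to samples by title. The members and gene lists were chosen with earlier results of these data known.

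Of 26334 genes, 7397 had no count and 12032 had a mean of at least 10 counts and were tested. edgeR 4.0.16 (R 4.3.3) was run with TMM factors, glmQLFit and glmQLFTest, on time in hours, time as 4 groups, or time and its square, with Benjamini-Hochberg adjustment over all genes and a threshold of 0.05. Standard errors come from the F statistic, and half-lives are −1/slope. The common biological coefficient of variation was 0.0905. Count ratios (0.5 added to each count) were tested by exact permutation, for which the smallest possible p is 2.71e-06. Intervals are 95% and counting intervals are exact. The replicate numbers in the labels pair the libraries: deviations from the time means correlated between libraries of the same number in all 18 pairs (r from 0.290 to 0.603), against −0.396 to 0.0807 in 36 pairs of different number. Alternatives used DESeq2 1.42.0, limma 3.58.1 (prior count 1), other scalings and filters, and fewer libraries. Annotation and 3′ UTRs come from GENCODE 44 on GRCh38, matched by symbol, which is not the build in the processing notes, so no count depends on these coordinates. Motif windows are sequences of the reference genome. The named pathway genes were picked in each of the 6 groups. Among those past the threshold with the same sign in every replicate, they are up to 3 with the steepest fall and up to 3 with the steepest rise. HIF3A, ARNT2, EGLN2 and RAMP2 were added after their values were seen. Scripts were tested on simulated data.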

Additional observations from a re-analysis of the deposited data

How the results depend on the processing

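Of 139 recomputed main results, 114 stayed in the same direction and within 1.5 times or on the same side of the threshold, and of 554 recomputed values of single genes 491 did. Scaling to GAPDH and ACTB changed most: 8 of the 9 tested transcripts fell (5 with TMM), 0 rose, 8 were lower at 4 h, 0 were higher, and 2 pathway genes rose (36 with TMM). The slopes that turned negative were −0.11 (HIF1A), −0.015 (EPAS1), −0.13 (ARNT), −0.12 (BNIP3), −0.0050 (P4HTM), −0.033 (ELOC, listed as TCEB1), −0.062 (HSP90AA1), −0.027 (RACK1, listed as GNB2L1), −0.0072 (VEGFB) and −0.052 (NRP1), and at 4 h against 0 h −0.43 (HIF1A) and −0.016 (EPAS1). With library totals 0 transcripts rose and 0 were higher at 4 h, with slopes of −0.0070 (HIF1A), −0.031 (ARNT) and −0.020 (BNIP3), and −0.025 for HIF1A at 4 h. With DESeq2 size factors or the DESeq2 Wald test, 2 rose. A mean of at least 100 counts, which removes ADM and EGLN3, left 3 that fell, 3 lower at 4 h and 0 lower at 1 h, and limma gave 0 lower at 1 h. With 1, 2 and 4 h only, chosen after seeing the data, ADM was too low to test, 4 fell and 0 rose. HIF3A then had a slope of −0.00016.

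With the replicate block, 2 transcripts rose, 2 were higher at 4 h and 1 passed for the squared-time term; the block changed no other call of a gene named in the report. Leaving out 1 replicate each, 4 to 5 transcripts fell and 0 to 1 rose, 4 to 5 were lower and 0 to 1 higher at 4 h, and 0 to 1 were lower at 1 h. The ratio slopes ranged from −0.89 to −0.75 (ADM to VEGFA) and from −0.20 to 0.036 (EGLN3 to EGLN1), and the slopes from −0.0031 to 0.012 (ARNT) and from −0.00021 to 0.028 (BNIP3). The cause of these changes was not tested. ADM, EGLN3 and ANKRD37 are limited by counts, with sums of 7, 25 and 2 at 4 h.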

Other observations

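Some genes that would bear on this pathway were listed at or near 0 and gave no comparison. The mean over the 12 libraries was 0.0833 counts for EGLN2, 0.167 for the carbonic anhydrase CA9, 0.750 for EPO and 1.75 for VEGFC. RAMP3 was listed at 0 in every library. The counter and its annotation are not known, so a gene listed near 0 is not shown to be silent.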
